A study of Gallus gallus with 10 samples.

Results

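The transcripts described here were modestly more abundant in 3 of the 5 chicken embryos of the study, embryos 77, 79 and 82, than in the other two, embryos 76 and 81. They were chosen from their levels in these same libraries. A transcript was a member when all 6 libraries of embryos 77, 79 and 82 lay above all 4 libraries of embryos 76 and 81, when its mean level over the 10 libraries was at least 5 TPM (a level scaled for transcript length and for the library's total), and when the mean of the 6 divided by the mean of the 4 lay between 1.2 and 2.2. Of 25747 Ensembl transcripts in each deposited table, 10485 reached the mean of 5 TPM, and 331 of these were members. The order of the libraries, the mean and the ratio chose the members, so the values of embryos 77, 79 and 82 against 76 and 81 are given as a description, with no test. That grouping of embryos comes from the data and is not a group of the study.

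The otocyst is the epithelial vesicle from which the inner ear forms. Otocysts of White Leghorn chicken embryos at embryonic day 2.5 were freed of mesenchyme and cultured singly for 24 h, the right one with 300 µM IWR-1 and the left one of the same embryo with the solvent DMSO. IWR-1 is a tankyrase inhibitor that stabilises axin and thereby lowers canonical Wnt signalling. Each of the 5 embryos gave 1 IWR-1 and 1 DMSO library, so embryos 77, 79 and 82 hold 6 libraries and embryos 76 and 81 hold 4, with the treatments balanced on either side. Body side and treatment cannot be told apart in any comparison of IWR-1 with DMSO, and nothing in the labels gives the sex of the embryos.

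Birds have a ZW system of sex determination, in which males are ZZ and females ZW. Compensation for the unequal number of Z chromosomes is incomplete in chicken and varies from gene to gene, and many Z-linked genes are therefore somewhat more abundant in male than in female tissue, while genes of the W chromosome are expressed in females alone. For this reason the members were proposed as candidates for transcripts of the Z chromosome. The deposited tables give Ensembl transcript IDs without gene names or chromosomes, and the reference table of gene names (RefSeq, assembly GRCg7b) matched 0 of the 25747 IDs. Chromosome of origin, sex of the embryos and the markers of the otocyst were therefore not tested, and no gene name or role is given for any transcript.

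Total estimated counts per library were 24551355 to 28572053 in embryos 77, 79 and 82 and 24470010 to 28469249 in embryos 76 and 81, so depth did not separate the embryos. The 20 most abundant transcripts held 8.38% to 9.19% of counts in the 6 libraries and 8.79% to 9.33% in the 4. Among transcripts of at least 5 TPM that were in neither of the sets described here, the median level relative to the mean of embryos 76 and 81 was 0.943 to 1.03 in the 6 libraries and 0.938 to 1.04 in the 4. The scale of the libraries thus differed by little on a TPM basis. A library is scaled to a fixed sum, so a ratio measures relative and not absolute abundance, and fewer cells of a type cannot be told apart from less RNA per cell.

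The members outnumbered the transcripts that met the same limits in the opposite direction. The 331 members were 3.16% of the 10485 transcripts of at least 5 TPM. In the mirror set, with all 6 libraries of embryos 77, 79 and 82 below all 4 of embryos 76 and 81 and the inverse ratio between 1.2 and 2.2, there were 54 transcripts, or 0.515%, so that the members were 6.13 times as many. That multiple rests on the embryos used. It was 3.89, 2.19, 3.45, 2.53 and 1.44 without embryos 77, 79, 82, 76 and 81, 2.82 without the IWR-1 library of embryo 81 and 3.13 without the DMSO library of embryo 76. Without any other 1 library it was 4.25 to 6.30, and within the IWR-1 or the DMSO libraries alone it was 1.67 or 1.69. Without limits on the ratio, the 6 libraries lay above the 4 for 356 transcripts (3.4%) and below them for 141 (1.34%). The limits removed different transcripts on each side. Above the 4 libraries, 14 transcripts had ratios under 1.2 and 11 had ratios over 2.2, whereas below them 23 had inverse ratios under 1.2 and 64 had inverse ratios over 2.2. Of these 64, 16 were listed at 0 in every library of embryos 77, 79 and 82.

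The ratios of the members were spread broadly over the permitted range and were not concentrated at its lower edge. Their median was 1.67, with an interquartile range of 1.47 to 1.84 and with 1.29 and 2.01 at the 5th and 95th percentiles. In the mirror set the median inverse ratio was 1.33, with an interquartile range of 1.26 to 1.43. The most populated interval of the members, from 1.8 to 1.9, held 50 transcripts, while that of the mirror set, from 1.3 to 1.4, held 22. A ratio of at least 1.5 was found for 233 members (70.4%) and 7 mirror transcripts (13%), and a ratio of at least 1.8 for 103 members and 2 mirror transcripts. Over all 10485 transcripts the median ratio of embryos 77, 79 and 82 to 76 and 81 was 0.997. Near the limits, the lowest member ratio was 1.21 and the nearest transcript below the limit had 1.19. At the upper end the highest member ratio was 2.18 and the nearest transcript above the limit had 2.23. The least abundant member averaged 5.22 TPM, and the most abundant transcript that failed only the level limit averaged 4.93 TPM.

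**Figure D1:**
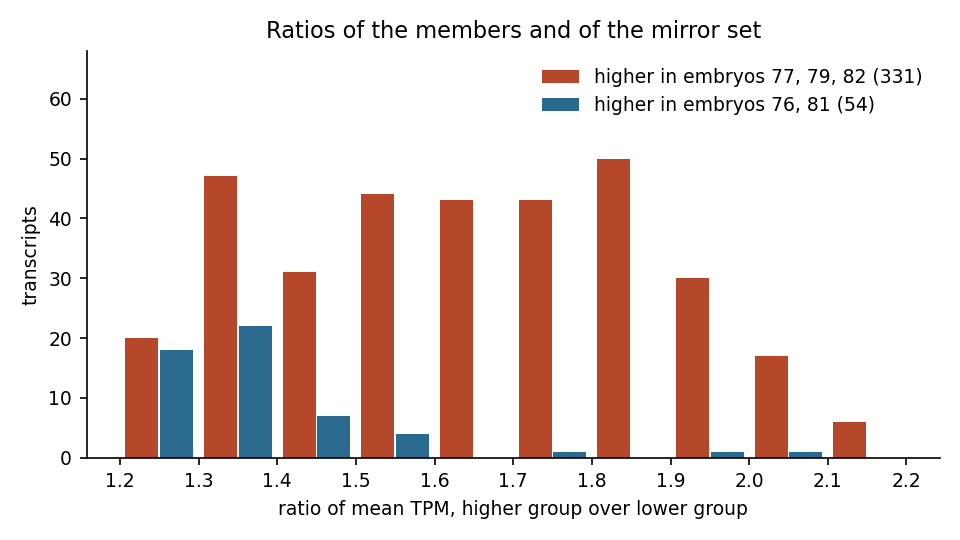
Number of transcripts (vertical axis) by ratio of mean TPM in the higher embryos over the lower embryos (horizontal axis, intervals of 0.1), for the 331 members (red) and the 54 mirror transcripts (blue). The members extend across the range with 50 transcripts between 1.8 and 1.9, and the mirror set lies mostly below 1.5.

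The same limits were applied to the 9 other ways of setting 3 of the 5 embryos against the remaining pair. In these, the 3 embryos were higher for 42 to 122 transcripts, with median ratios of 1.30 to 1.47, against 331 transcripts and a median of 1.67 for embryos 77, 79 and 82. The pair was higher for 34 to 352 transcripts, with median ratios of 1.30 to 1.55. The 352 belonged to embryos 76 and 79 set above 77, 81 and 82, and their median ratio was 1.30. Counting only ratios of at least 1.5, the other groupings held 13 to 34 transcripts for the 3 embryos and 8 to 55 for the pair, beside 233 among the members. These counts share all their libraries and are descriptive.

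The 5 embryos were alike within each side. Taking the mean of both otocysts of each embryo, the median ratio of the members was 1.58 for embryo 77 over 76, 1.64 for 77 over 81, 1.65 for 79 over 76, 1.70 for 79 over 81, 1.6 for 82 over 76 and 1.67 for 82 over 81. The 6 medians thus lay between 1.58 and 1.70, whichever embryo of either side was used. The choice itself put all 331 members above 1 in each of these pairs, so the medians are a description. Within the higher side, embryo 79 was the highest for 175 members, embryo 82 for 103 and embryo 77 for 53. Embryo 77 stood at a median of 0.95 of embryo 79, close to the 0.931 found over all transcripts of at least 5 TPM. Within the lower side, embryo 81 stood at a median of 0.968 of embryo 76, beside 0.954 over all those transcripts. The highest of embryos 77, 79 and 82 exceeded the lowest by a median of 1.14-fold among the members, and embryos 76 and 81 differed by a median of 1.08-fold. The same spreads over all 10485 transcripts were 1.2-fold and 1.11-fold, and the requirement that no libraries overlap favours small spreads among members.

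Summed over the members, the share of all TPM was 3.57% ± 0.116 in embryos 77, 79 and 82 (SD, n = 3 embryos) and 2.06% in embryos 76 and 81 (n = 2 embryos). Per library it was 3.37% to 3.65% in the 6 libraries and 1.99% to 2.13% in the 4. The median level of a member relative to the mean of embryos 76 and 81 was 1.59 and 1.62 in the IWR-1 and DMSO libraries of embryo 77, 1.63 and 1.69 in those of embryo 79, and 1.61 and 1.65 in those of embryo 82. In embryo 76 it was 1.04 with IWR-1 and 0.993 with DMSO, and in embryo 81 it was 0.955 with IWR-1 and 1.01 with DMSO. The 6 libraries carried the excess at nearly the same size, with IWR-1 and with DMSO. The choice of members favours this, as it required each of the 6 libraries to lie above all 4.

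**Figure D2:**
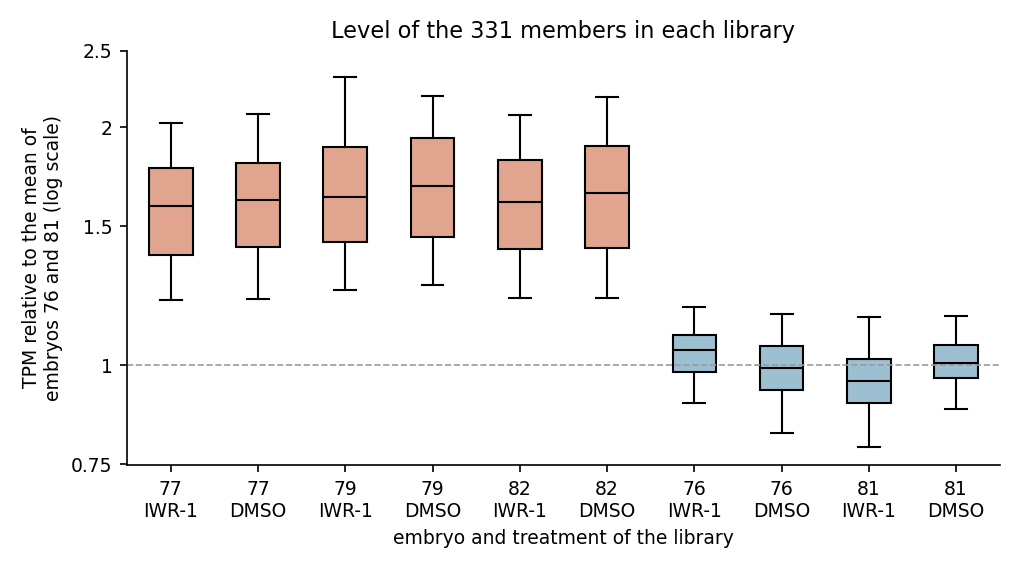
TPM of the 331 members in each of the 10 libraries, divided for each transcript by its mean over embryos 76 and 81 (vertical axis, log scale). Boxes show the interquartile range with the median as a line, and whiskers the 5th to 95th percentiles. The medians of the libraries of embryos 77, 79 and 82 (red) lie at 1.59 to 1.69 and those of embryos 76 and 81 (blue) at 0.955 to 1.04.

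Individual members are shown by the 2 most abundant transcripts among the 159 members whose counts were whole numbers in all 10 libraries. Such counts give no sign that reads were divided with another transcript. ENSGALT00000025326.5, of 765 bases, had a lowest value of 1948 TPM, a median of 2090 TPM and a highest value of 2278 TPM in the libraries of embryos 77, 79 and 82. In embryo 76 it had 1168 TPM with IWR-1 and 999 TPM with DMSO, and in embryo 81 it had 1099.6 TPM with IWR-1 and 1248.5 TPM with DMSO. All 6 libraries were thus well above all 4, and the embryo means were 2104 ± 124 TPM in embryos 77, 79 and 82 (SD, n = 3) and 1129 TPM in embryos 76 and 81 (n = 2), a ratio of 1.86. The library with the fewest counts for it held 11391, a counting error of 0.937% if reads were independent.

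ENSGALT00000024329.5, of 984 bases, was less even. In embryos 77, 79 and 82 its lowest value was 2520.4 TPM, its median 3475 TPM and its highest value 3786 TPM, with both otocysts of embryo 79 below those of embryos 77 and 82. Embryo 76 had 1749.7 TPM with IWR-1 and 1586 TPM with DMSO, and embryo 81 had 2299 TPM with IWR-1 and 1716 TPM with DMSO. The libraries did not overlap, but the IWR-1 otocyst of embryo 81 came near the lowest of the 6. The ratio was 1.8, from embryo means of 3317 ± 516 TPM in embryos 77, 79 and 82 (SD, n = 3) and 1838 TPM in embryos 76 and 81 (n = 2). Once the means of the 6 and of the 4 libraries were removed, 2 other members had a profile over the 10 libraries that correlated with it at 0.95 or more. These 3 transcripts, at 1439 to 2744 TPM, held 23.3% of the summed TPM of all members. Each was higher in embryos 77 and 82 than in embryo 79, and higher in embryo 81 than in embryo 76. The summed share given above therefore leans on them, whereas the medians do not.

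For contrast, the 2 most abundant mirror transcripts with whole counts were set beside them. ENSGALT00000008938.5 had 80.2 to 132 TPM in the libraries of embryos 77, 79 and 82, and 159, 143, 146 and 143 TPM in those of embryos 76 and 81, an inverse ratio of 1.39. ENSGALT00000023710.5 had 48.6 to 56.6 TPM in the 6 libraries, and 65.9, 62.2, 61.8 and 66.0 TPM in the 4, an inverse ratio of 1.21. The first of these varied among the 6 libraries by more than the means of the sides differed.

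ENSGALT00000025326.5 was one of the even members. In 212 of 331 (64.0%) neither the 3 higher embryos nor the 2 lower embryos differed among themselves by more than 1.2-fold, a limit chosen after the values were seen. The even members had a median level of 36.0 TPM and a median ratio of 1.65, and the 119 others 18.8 TPM and 1.67. Embryos 77, 79 and 82 differed by more than 1.5-fold in 12 members (3.63%) and 3 mirror transcripts (5.56%). Over all transcripts of at least 5 TPM this share was 14.9%. In the mirror set 32 of 54 transcripts (59.3%) were even by the same limit, with a median inverse ratio of 1.30, and over all transcripts of at least 5 TPM 41.3% were. Evenness is read from the values that chose both sets, and the absence of overlap favours it.

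The excess was also read in the libraries of the treatment not used for picking. The sides of the embryos and the limits had been set with all 10 libraries in view, so this reading is descriptive. When the limits were applied to the 5 IWR-1 libraries alone, 601 transcripts were picked. In the DMSO libraries their median ratio was 1.39, and 506 of them (84.2%) had a ratio above 1. That share was 48.7% over all transcripts of at least 5 TPM. All 3 DMSO libraries of embryos 77, 79 and 82 lay above both of embryos 76 and 81 for 370 of the 601 (61.6%), against 9.17% of all transcripts of at least 5 TPM. Of the 601, 319 were members, and the rule itself keeps members from overlapping in the DMSO libraries. When the 5 DMSO libraries were used for picking, 557 transcripts were found. In the IWR-1 libraries their median ratio was 1.44, and 491 of them (88.2%) had a ratio above 1, against 47.1% of all. There the libraries did not overlap for 364 of 557 (65.4%), against 7.99% of all. Members made up 315 of the 557, so the rule fixed most of the counts of 370 and 364 beforehand. The mirror direction held less well, although most of its transcripts kept an inverse ratio above 1. Of 360 transcripts picked in IWR-1 libraries 86 (23.9%) did not overlap in DMSO libraries, against 7.98% of all. Their median inverse ratio was 1.11, and 281 (78.1%) were above 1, against 51.3% of all. Of 330 picked in DMSO libraries 79 (23.9%) did not overlap in IWR-1 libraries, against 9.4% of all. Their median was again 1.11, and 235 (71.2%) were above 1, against 52.9% of all. Both otocysts of an embryo share their genotype, so these values describe how well one otocyst repeats the other and not how other embryos would behave. For the 331 members themselves, chosen from the libraries of both treatments, the median ratio was 1.64 within the IWR-1 libraries and 1.65 within the DMSO libraries.

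**Figure D3:**
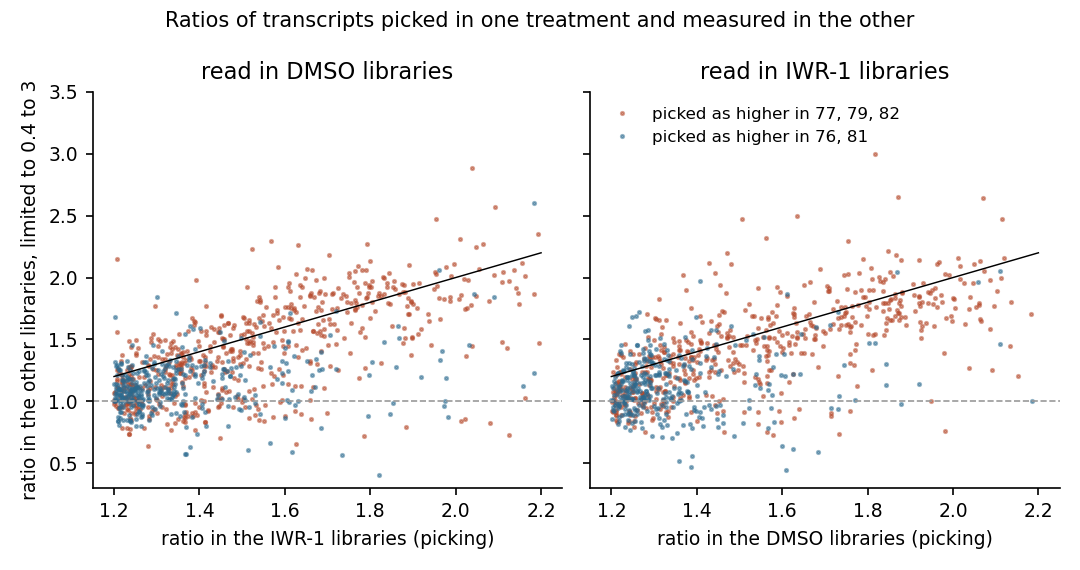
Ratio in the libraries not used for picking (vertical axis, limited to 0.4 to 3) against the ratio in the libraries used for picking (horizontal axis), with IWR-1 libraries used on the left and DMSO libraries on the right. Red points were picked as higher in embryos 77, 79 and 82 and blue points as higher in 76 and 81 (inverse ratios), the solid line marks equal ratios and the dashed line a ratio of 1. Red points have medians of 1.39 (left) and 1.44 (right), below their medians of 1.49 and 1.496 in the libraries used for picking. Of the red points, 84.2% (left) and 88.2% (right) had a ratio above 1. Blue points have a median inverse ratio of 1.11 in each panel, and 78.1% (left) and 71.2% (right) of them had one above 1.

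Leaving out an embryo and measuring it afterwards gave a similar picture for 4 of the 5 embryos. Picking without embryo 77 gave 408 transcripts, whose median ratio in embryo 77 was 1.51, and both of its libraries lay above all 4 of embryos 76 and 81 for 330 of them (80.9%, against 7.03% of all transcripts of at least 5 TPM). Without embryo 79 there were 379, with a median of 1.63 in embryo 79 and no overlap for 327 (86.3%, against 15.9%). Without embryo 82 there were 407, with a median of 1.53 in embryo 82 and no overlap for 330 (81.1%, against 8.08%). Each of the 3 embryos, when left out, stood above embryos 76 and 81 for most of the transcripts picked without it. However, members made up 327, 323 and 328 of the 408, 379 and 407 picks. By the rule, members do not overlap in any embryo, so the counts without overlap are largely the members again. Embryos 76 and 81, against which the left-out embryo was read, were also used for picking.

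For the lower side, picking without embryo 81 gave 437 transcripts, for which embryos 77, 79 and 82 stood at a median of 1.57 times the level of embryo 81, with no overlap for 329 (75.3%, against 8.8%). Without embryo 76 the limits were met by 649 transcripts, nearly 2 times as many as with it. Embryos 77, 79 and 82 stood at a median of 1.27 times the level of embryo 76 for these, with no overlap for 327 (50.4%, against 5.12%). Of the 649, 504 (77.7%) had a ratio above 1 to embryo 76, against 40.2% of all transcripts of at least 5 TPM. Most of the 649 were thus lower there too, often with overlapping libraries. Against embryo 81, which was used for picking, their median ratio was 1.47. The choice can favour a smaller difference in an embryo that was not used for it. For embryos 77, 79, 82 and 81, the medians in picking were 1.61, 1.61, 1.61 and 1.58. In the left-out embryo they were 1.51, 1.63, 1.53 and 1.57. Over all transcripts of at least 5 TPM the same medians were 0.967, 1.04, 0.981 and 1.03, and for embryo 76 the median was 0.977. These cases are not alike, as leaving out embryo 76 or 81 leaves only the other for the lower side. Leaving out embryo 77, 79 or 82 keeps both. The cause of the smaller difference in embryo 76 was not tested. For mirror transcripts picked in the same way, the median inverse ratio in the left-out embryo was 1.19, 1.09, 1.18, 1.11 and 1.06 for embryos 77, 79, 82, 76 and 81. In the same order, 48.6%, 31.2%, 43.2%, 20.2% and 17.4% of them did not overlap, against 11.7%, 8.73%, 10.2%, 5.65% and 4.72% of all. Of those picked without embryo 76, 74.3% had an inverse ratio above 1 in it, against 59.8% of all. Members made up 321 of the 437 transcripts picked without embryo 81 and 318 of the 649 picked without embryo 76. The counts of 329 and 327 without overlap are therefore largely the members again. The sides of the embryos had been set with all 5 embryos in view, so these values too are descriptive.

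The limits did not name length or the division of reads, while a mean of at least 5 TPM was required. The absence of overlap can still favour transcripts with little technical spread. Whether the differences in level, length and whole counts come from the choice was not tested. The members had a median length of 1740 bases, the mirror set 1720.5 bases and all transcripts of at least 5 TPM 1814 bases. The median level of the members was 28.9 TPM, against 16.2 TPM in the mirror set and 23.1 TPM overall. Counts were whole in all libraries for 48% of members, 42.6% of mirror transcripts and 40.9% of all. The members with whole counts had a median ratio of 1.72 and those with divided reads 1.62. Reads shared by several transcripts are apportioned among these in such counts, and the part of this in the lower ratio was not tested.

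Members occurred at all levels and lengths. With the 10485 transcripts divided by mean TPM into 3 bins of nearly equal size, 84, 122 and 125 members fell in the bins from low to high, or 2.40%, 3.49% and 3.58% of each. The median ratio was 1.57, 1.61 and 1.77 in the same order, so the median was highest in the most abundant bin. Single members departed from this, as the highest ratio of all, 2.18, belonged to a member at 9.21 TPM. Mirror transcripts numbered 18, 27 and 9 in these bins. By length, 115, 109 and 107 members fell in the bins from short to long, with median ratios of 1.75, 1.68 and 1.56. Counting error was small for most members, as the median of their mean counts per library was 1121, but the lowest count of any member in any library was 20. PCR copies are not separate molecules, so counting error is a lower limit of the technical error.

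The members were not spread evenly over the rows of the deposited tables. The tables were divided into 25 blocks of consecutive rows of nearly equal number, and the share of members among transcripts of at least 5 TPM ranged from 0.249% to 7.89%. The 5 blocks from 13 to 17, singled out after the values were seen, held 133 members among 2116 such transcripts (6.29%, with 4.87% to 7.89% in each block). The other 20 blocks held 198 among 8369 (2.37%, with 0.249% to 4.21% in each). In those 5 blocks, chosen for the members, the mirror set made up 0.425%, against 0.538% in the others. It was uneven elsewhere, with 7 of 472 transcripts (1.48%) in block 24. Over all transcripts of at least 5 TPM, members made up 3.16% and the mirror set 0.515%. In the order of the numbers in the transcript IDs, 59 of 331 members (17.8%) were directly followed by another member. For the mirror set this held for 0 of 54. In the order of rows, 29 of 331 members (8.76%) and 2 of 54 mirror transcripts (3.70%) were followed by another of their own set. Mirror counts of 0 and 2 are too small to set against those of the members. Neither order is stated to follow position in the genome, and transcripts of 1 gene can stand next to each other, so that members need not be separate genes.

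**Figure D4:**
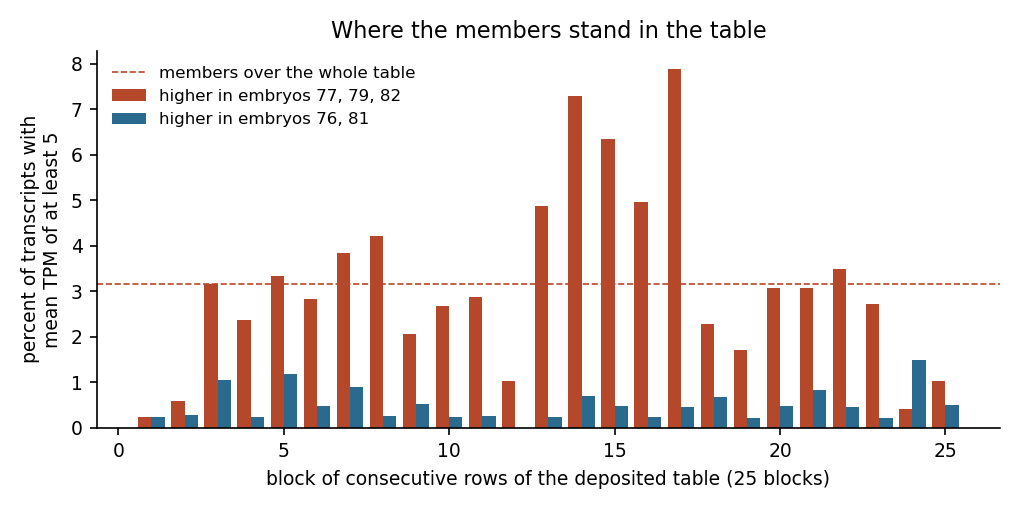
Share of members (red) and of mirror transcripts (blue) among transcripts with a mean of at least 5 TPM (vertical axis, percent), in 25 blocks of consecutive rows of the deposited table (horizontal axis). The dashed line is the share of members over the whole table, 3.16%. Blocks 13 to 17 reach 4.87% to 7.89% for members. The mirror set, at 0.515% over the whole table, is uneven too and reaches 1.48% in block 24.

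The contrast of IWR-1 with DMSO did not enter the choice directly, since each embryo gave 1 library of each. No member was called. Without an embryo term, edgeR's quasi-likelihood test found that 0 of 331 members passed a Benjamini-Hochberg adjusted p of 0.05, where 0.00571% of the 17504 transcripts tested did (1 transcript), and the smallest adjusted p of a member was 0.757. At an unadjusted p under 0.05 there were 0 members, against 6.56% of all transcripts. DESeq2 without an embryo term also called 0 members (1 at an unadjusted p under 0.05), against 0.657% of the transcripts it tested. By construction, that test counts the difference between embryos as spread within each group, and the members were chosen for such a difference. With the embryo as a block, edgeR called 0 members and 0% of all transcripts, with a smallest adjusted p of 0.205 among members, while 29 members (8.76%), 16 of them higher and 13 lower with IWR-1, had an unadjusted p under 0.05, against 10.1% of all.

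The limits on overlap and ratio leave little room for a large difference between the otocysts of an embryo, so the size of the members' changes is given as a description. Their median log2 fold change (IWR-1 over DMSO, edgeR without an embryo term) was 0.010, with an interquartile range of -0.06 to 0.08, and the largest change in either direction was 0.42. Over all transcripts tested, which include less abundant ones, the median was 0.0027 and the interquartile range -0.13 to 0.12. On the TPM scale 5 members (1.51%) were higher with IWR-1 in all 5 embryos, against 3.74% of all transcripts of at least 5 TPM, and 27 (8.16%) were lower in all 5, against 8.88%. The median log2 ratio of IWR-1 to DMSO over the members was -0.03 in embryo 77, -0.05 in embryo 79, -0.03 in embryo 82, 0.06 in embryo 76 and -0.09 in embryo 81. The sign thus differed between embryos, and over all transcripts of at least 5 TPM the medians were -0.05, -0.02, -0.02, 0.05 and -0.10 in the same order. The paired otocysts of an embryo differed by a median of 0.10 to 0.14 on the log2 scale among members, in either direction, and by 0.15 to 0.17 over all these transcripts, which no such limits had selected.

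**Figure D5:**
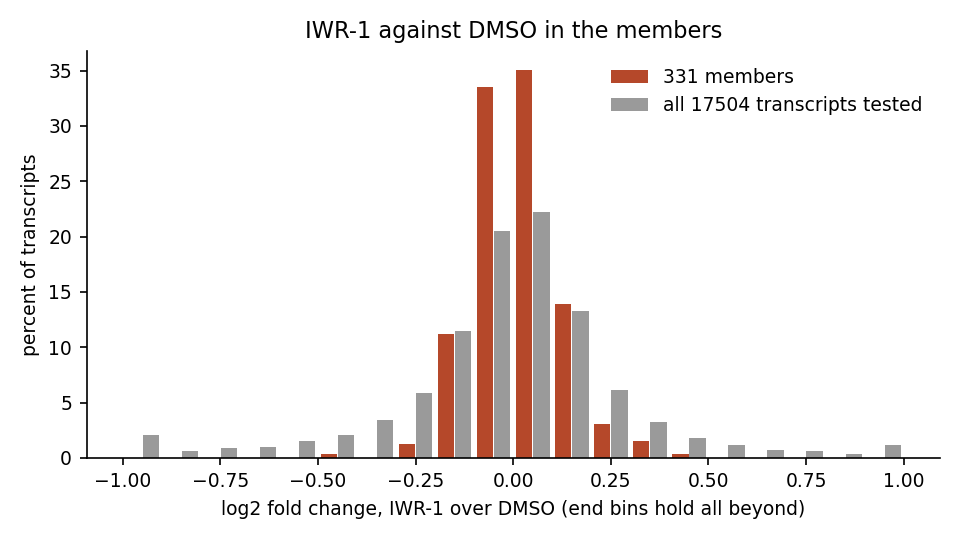
Percent of transcripts (vertical axis) by log2 fold change of IWR-1 over DMSO in edgeR without an embryo term (horizontal axis, intervals of 0.1, with values beyond the axis placed in the end bins), for the 331 members (red) and all 17504 transcripts tested (grey). Members lie within 0.42 of 0, with a median of 0.010.

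The members with the smallest p in each direction in edgeR without an embryo term did not pass the test. With the embryo block the smallest adjusted p of a member, 0.205, belonged to another transcript. ENSGALT00000000283.5 had 19.6, 22.9, 23.0, 19.6 and 23.9 TPM in the IWR-1 libraries of embryos 76, 77, 79, 81 and 82, and 14.3, 20.9, 20.4, 15.4 and 20.3 TPM in the DMSO libraries of the same embryos. It was higher with IWR-1 in 5 of 5 embryos, with a log2 fold change of 0.29 (SE 0.13, edgeR adjusted p = 0.757), or 0.30 (SE 0.08, adjusted p = 0.342) with the embryo block. ENSGALT00000038309.3 had 49.2, 52.2, 57.3, 44.1 and 61.1 TPM with IWR-1 and 49.9, 69.3, 64.2, 51.2 and 74.4 TPM with DMSO in the same embryos. It was higher with IWR-1 in 0 of 5 embryos, with a log2 fold change of -0.20 (SE 0.13, edgeR adjusted p = 0.891), or -0.19 (SE 0.05, adjusted p = 0.391) with the embryo block.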

How the data were processed

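RNA of 10 single otocysts was sequenced. Per the submitters' processing notes, kallisto and bcl2fastq were used with GRCg6a. Tool versions are not given in the sources used here. Per the file headers, each deposited table gives an estimated count per transcript, not normalised and with shared reads divided, and a TPM value that the authors' software scaled to effective length and a fixed sum. The 9 added construct sequences were left out. The members and the limits were chosen with earlier results of these data known. Member selection, ratios and counts used the deposited TPM values (python 3.11.15, pandas 2.3.3). For IWR-1 against DMSO, estimated counts were rounded and tested over the whole table in R 4.3.3 with edgeR 4.0.16 (quasi-likelihood, robust, TMM, default filter, two-sided, Benjamini-Hochberg adjustment). The embryo block, DESeq2 1.42.0, limma 3.58.1 on log2(TPM + 1), other scalings, filters and limits, and removal of single libraries or embryos were the alternatives. Standard errors (SE) were derived from the F statistic, as the absolute log2 fold change over its square root. Embryo numbers pair the libraries because both otocysts came from the same embryo. As a check, deviations from the group means correlated at 0.587 to 0.725 within embryos and at -0.614 to 0.606 across them. Named transcripts were the 2 most abundant members and mirror transcripts with whole counts. For IWR-1 they were the member with the smallest p in each direction in edgeR without an embryo term. Libraries are single otocysts of 5 embryos. P-values without an embryo term set the difference between IWR-1 and DMSO against the spread between libraries. That spread includes differences between embryos, and the pairing of otocysts is left unused. With the embryo block the p-values set this difference against how it varied over the embryos. The selection and the test were tested on simulated data. The outcome is not given here, and it does not show how they perform on these paired otocysts.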

Additional observations from a re-analysis of the deposited data

Results flagged for a closer look

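The added NICD1 sequence, which is outside the measurements above, had up to 1485 estimated counts in a library, more than the 3 that a count of 0 allows. It ranged from 572 to 1467 counts in the IWR-1 libraries and from 681 to 1485 in the DMSO libraries. In 32 groups of 4 to 6 libraries, taken over the library totals, the members' share of TPM and the named transcripts, 0 libraries stood far from the rest of their group.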

How the results depend on the processing

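The count of 331 members became 284 to 400 with a mean of at least 10 or 1 TPM, 348 to 356 with wider or open ratio limits, and 334 or 333 with TMM-scaled CPM or size-factor-scaled TPM, which shared 319 and 318 transcripts with the 331. The mirror count of 54 became 141 with any ratio above 1. Whole-count transcripts alone gave 159 members, 23 mirror transcripts and a median ratio of 1.72. DMSO libraries alone gave 557, 330 and 1.496, and IWR-1 libraries alone 601, 360 and 1.49, where fewer libraries make no overlap easier to reach. Leaving out 1 library or 1 embryo gave 340 to 649 members, 56 to 304 mirror transcripts and median ratios of 1.47 to 1.66. The 649 and 1.47 came without embryo 76, when 318 of the 331 were again picked. The mirror count was 105, 173, 118, 257 and 304 without embryos 77, 79, 82, 76 and 81, 123 without the IWR-1 library of embryo 81 and 120.0 without the DMSO library of embryo 76. For IWR-1 against DMSO, the 1 call over all transcripts became 0 with the replicate block, 134 with DESeq2 and 0 to 2 without 1 library or embryo, and none of these fits called a member. It was 2 without the IWR-1 library of embryo 82 and 0 without embryo 77, 79 or 81 or the IWR-1 library of 76, 77 or 79. The cause was not tested. The median log2 fold change of the members was -0.085 to 0.11 without 1 library or embryo, since a removed library leaves the embryo sides unbalanced. The 2 members named for IWR-1 kept their direction in all 20 alternatives, at 0.21 to 0.35 and at -0.27 to -0.11, with adjusted p from 0.342 and from 0.391 to 0.99996. Depth limits the least abundant members, with 20 counts at the lowest.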
